A study of Mus musculus with 12 samples.

Results

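The genes described here encode the signals, inhibitors and targets of the Wnt pathway in mouse cortex at embryonic day 14. They were chosen by name, as all probe sets annotated to 1 of 10 genes alone: Wnt2b, Wnt3a, Wnt5a and Wnt8b as ligands of the cortical hem, Wnt7a and Wnt7b as ligands of the whole cortex, Sfrp1 and Sfrp2 as secreted antagonists, and Axin2 and Lef1 as targets. This gave 24 of 45101 probe sets and 10 of 18194 named genes. Of these, 17 probe sets and 9 genes were bright enough to be tested. The arrays form 4 groups of 3, each from wild-type or AP2gamma knockout mice: caudal cortex of AP2gamma k.o. mice (caudal KO, animals 1, 2 and 13), caudal cortex of wild-type mice (caudal WT, animals 4, 6 and 14), rostral cortex of AP2gamma k.o. mice (rostral KO, animals 7, 8 and 15) and rostral cortex of wild-type mice (rostral WT, animals 10, 12 and 16). Tfap2c encodes AP2gamma, a DNA-binding factor, and the study concerned basal progenitors, which divide away from the ventricle, and how many of them form. How the deletion was made and in which cells is not given in the sources used here. The study calls the arrays of a group biological replicates, and every array carries its own animal number.

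Wnt proteins are secreted, lipid-modified signals that bind Frizzled receptors. In the canonical branch they stop a cytoplasmic complex from destroying beta-catenin, which then enters the nucleus and switches on genes together with DNA-binding partners of the TCF/LEF family. In the developing forebrain the cortical hem, a strip of neuroepithelium at the medial edge of the cortex beside the choroid plexus, is a known source of Wnt and BMP signals that drive growth of the hippocampus, whereas Wnt7a and Wnt7b are made across the cortical wall.

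Promoter sequences were available from RefSeq (GRCm38.p6) for 7 of the 10 genes, in 10 windows that cover the 250 bases before a start site. Wnt5a, Wnt7b and Sfrp1 had no entry. The windows were searched on both strands for the 2 forms of the TCF/LEF core, CTTTGA and CTTTGT, and for the palindromic AP2 motif GCCNNNGGC, the kind of site bound by the family to which AP2gamma belongs. A TCF/LEF core was present in 2 of the 10 windows, against 27.6% of 32851 mouse promoter windows of the same length, and an AP2 motif in 1 window, against 13.7%. These 3 windows are shown because they hold the matches found in any of these genes, with each match in capitals.
Wnt3a, minus strand, chr11:59290752-59291001, AP2 motif: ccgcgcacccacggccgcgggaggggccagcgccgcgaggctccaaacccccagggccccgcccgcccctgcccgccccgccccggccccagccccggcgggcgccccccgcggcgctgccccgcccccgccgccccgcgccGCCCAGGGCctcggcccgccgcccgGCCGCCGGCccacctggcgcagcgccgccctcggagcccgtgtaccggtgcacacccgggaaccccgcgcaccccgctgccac
Wnt8b, plus strand, chr19:44493222-44493471, TCF/LEF core: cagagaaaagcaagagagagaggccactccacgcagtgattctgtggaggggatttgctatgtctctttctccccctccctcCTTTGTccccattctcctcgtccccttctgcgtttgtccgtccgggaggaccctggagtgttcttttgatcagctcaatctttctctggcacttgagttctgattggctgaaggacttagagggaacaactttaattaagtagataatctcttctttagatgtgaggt
Lef1, start site 4, plus strand, chr3:131156044-131156293, TCF/LEF core: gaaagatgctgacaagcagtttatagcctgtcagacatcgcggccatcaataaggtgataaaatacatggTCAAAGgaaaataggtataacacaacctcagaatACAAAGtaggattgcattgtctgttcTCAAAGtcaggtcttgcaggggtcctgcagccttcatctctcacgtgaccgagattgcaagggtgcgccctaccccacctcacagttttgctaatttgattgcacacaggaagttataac
The GC-rich Wnt3a window (87.6% G and C) has 2 AP2 matches, at 108 to 100 and 83 to 75 bases before the start. In the Wnt8b window 1 CTTTGT lies 168 to 163 bases before the start. All 3 matches of the Lef1 window lie on the opposite strand, CTTTGA at 180 to 175 and at 120 to 115 bases and CTTTGT at 146 to 141 bases before the start. The other 3 Lef1 windows, of which 2 overlap, and those of Wnt2b, Wnt7a, Sfrp2 and Axin2 had no match. A match describes letters only, and no binding was measured here.

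Signal is given as log2 values. A probe set counts as dim where it lies below 5.21, the median of the whole table, and levels of different probe sets cannot be compared. Arrays had medians of 5.21 or 5.22, and mean Spearman correlations with their group of 0.926 to 0.952. Cortical identity genes were bright on all 12 arrays (Emx1 from 8.19, Emx2 from 8.76, Pax6 from 9.85 and Lhx2 from 10.4). Tfap2c ranged from 7.44 to 7.86 in caudal KO, against 8.64 to 9.19 in caudal WT, and from 8.09 to 8.63 in KO rostral cortex, against 8.54 to 9.06 in rostral WT. KO and WT arrays were apart in caudal cortex and overlapped in rostral cortex, and Tfap2c passed averaged over regions (-0.91 ± 0.14, limma adjusted p = 0.038) but in neither region alone (0.084 and 0.63). Whether its probe set lies in the deleted part is not given in the sources used here. Xist was high on 2 arrays, caudal WT animal 6 and rostral WT animal 12, so the sexes were not balanced between KO and WT. Rostral KO 15 stood apart: the mean of 6 tested of 12 meninges and mesenchyme genes was 7.93 there, against 5.47 to 6.29 on the other 11 arrays (Col3a1, a fibrillar collagen gene, at 9.97), and its ganglionic eminence mean of 8.03 was the highest. With 3 arrays per group, small differences are measured with little precision.

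The 3 tested hem ligands had lower means in KO than in WT in both regions, but caudal KO and WT arrays overlapped and no hem ligand passed the test across all genes. Wnt8b, a ligand made in the hem and the adjoining hippocampal field, read 6.20, 3.94 and 4.11 in caudal KO animals 1, 2 and 13, against 6.79, 7.06 and 4.85 in caudal WT animals 4, 6 and 14. Rostrally it read 6.67, 6.75 and 5.59 in KO animals 7, 8 and 15, against 6.99, 7.12 and 6.63 in WT animals 10, 12 and 16. The 2 lowest arrays were caudal KO 2 and 13, yet caudal KO 1 lay well above caudal WT 14, so the groups overlapped in both regions. Group means were ordered caudal KO (4.75 ± 1.26), caudal WT (6.23 ± 1.21), rostral KO (6.34 ± 0.65) and rostral WT (6.91 ± 0.25; SD, n = 3 each). The step between the 2 caudal groups exceeded either SD, with overlapping arrays, while the other steps were smaller than the larger SD of their pair. KO minus WT was -1.49 ± 0.62 (SE) in caudal and -0.58 ± 0.62 in rostral cortex (limma adjusted p = 1.00 and 0.89). Without rostral KO 15 the rostral difference was -0.20. The 2 other Wnt8b probe sets were dim on all 12 arrays.

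Wnt3a, the hem ligand that mouse genetics ties most closely to hippocampal growth, has 1 probe set, close to the limit of what was measured. Its values were 5.30, 0.66 and 1.70 in caudal KO, against 4.96, 5.52 and 5.09 in caudal WT. Rostrally the values were 4.50, 4.27 and 2.38 in KO, against 5.05, 5.63 and 4.50 in WT. Caudal KO 1 lay among the WT arrays while caudal KO 2 and 13 were the lowest of all 12 arrays, whereas rostrally each KO array lay below each WT array, the closest pair both at about 4.50. Only 3 of the 12 values exceeded the table median. With all lower values raised to it, KO minus WT shrank to -0.08 in caudal and -0.14 in rostral cortex, so the difference lies almost wholly among dim values.

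Wnt5a, a ligand that mostly acts through beta-catenin-independent signalling, read 6.12, 4.84 and 4.51 in caudal KO, against 6.58, 5.82 and 5.16 in caudal WT. Rostral values were 6.11, 6.69 and 5.69 in KO, against 6.75, 6.29 and 6.36 in WT. Here too caudal KO 2 and 13 were the lowest arrays and the groups overlapped, with KO minus WT at -0.69 ± 0.43 in caudal and -0.31 ± 0.43 in rostral cortex (limma adjusted p = 1.00 and 0.94). Without caudal KO 1 the caudal difference was -1.18, without caudal WT 4 it was -0.33, and without rostral KO 15 the rostral one was -0.07. With dim values raised to the median the caudal difference was -0.35. A second Wnt5a probe set gave -0.95 ± 0.50 caudally and 0.30 ± 0.50 rostrally, and the remaining 2 were dim throughout. Wnt2b, represented by 1 probe set, was dim on all 12 arrays (1.49 to 4.03) and was not tested.

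**Figure D1:**
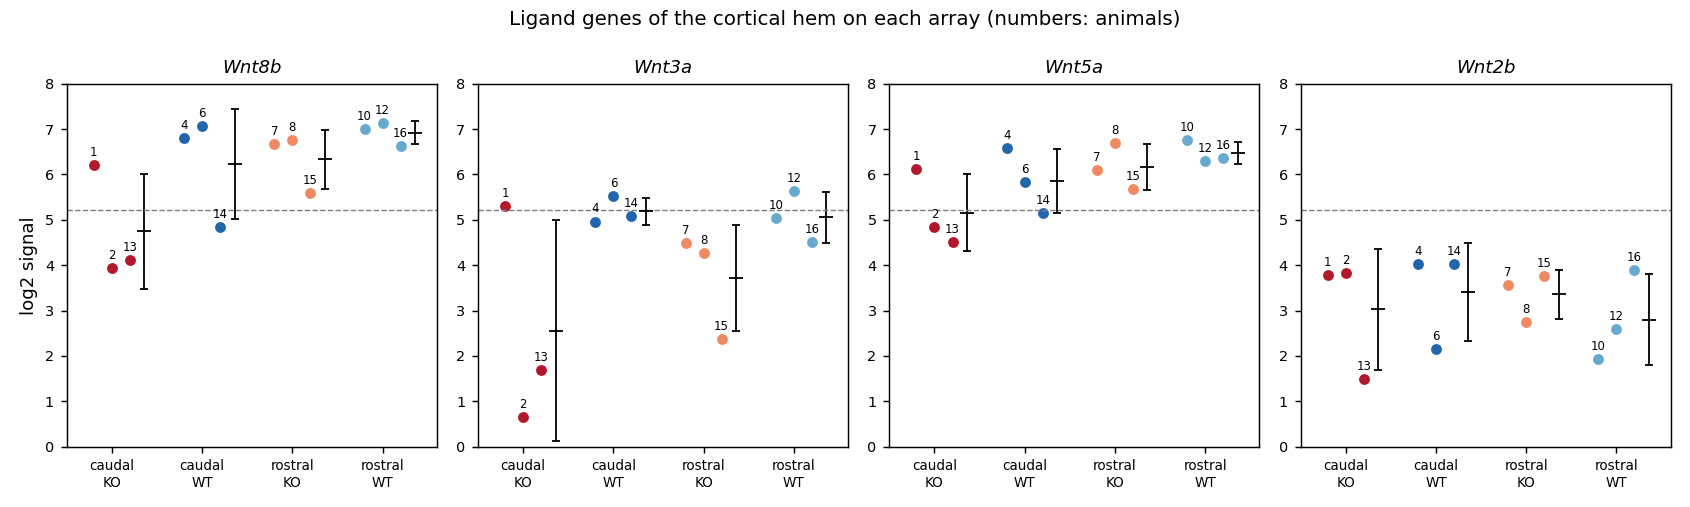
Log2 signal of the 4 hem ligand genes on each array, 1 point per array with its animal number, caudal KO, caudal WT, rostral KO and rostral WT from left to right. Bars are mean ± SD (n = 3) and the dashed line is the table median of 5.21. Caudal KO 2 and 13 are the lowest 2 arrays for Wnt8b, Wnt3a and Wnt5a, whereas caudal KO 1 sits among the WT arrays, and Wnt2b stays below the line.

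The hem ligands varied between arrays of the same group more than most genes. The within-group SD of Wnt8b was 0.94, larger than that of 99.2% of 1542 tested genes with a mean within 0.5 of its own. For Wnt5a it was 0.62 (larger than 94.3% of 1532 such genes), and for Wnt3a 1.38 (86.8% of 121). The median over all tested genes was 0.20. Among the other members, Wnt7a (0.18, 47.1% of 2411 genes), Sfrp2 (0.17, 59.2% of 2233), Axin2 (0.23, 66.9% of 2372) and Sfrp1 (0.16, 71.6% of 1143) varied about as other genes of their level do, with Wnt7b (0.22, 80.8% of 2076) and Lef1 (0.35, 89.4% of 2258) somewhat above.

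Caudal KO 2 and 13 were the lowest 2 arrays for each tested hem ligand. Beyond these the order of arrays differed between ligands. Caudal WT 14 was low for Wnt8b (4.85) and Wnt5a (5.16), but for Wnt3a (5.09) it lay above caudal WT 4 (4.96). The mean of Wnt8b, Wnt3a and Wnt5a was 5.87, 3.15 and 3.44 in caudal KO 1, 2 and 13, against 6.11, 6.13 and 5.03 in caudal WT 4, 6 and 14. It was 5.76, 5.90 and 4.55 in rostral KO 7, 8 and 15, against 6.26, 6.35 and 5.83 in rostral WT 10, 12 and 16. In each group the array from animals 13 to 16 was at or near the bottom of this mean. The mean includes dim Wnt3a values, 0.66 and 1.70 in caudal KO 2 and 13. As a description over 12 arrays that share normalisation and groups, and among 36 pairs of members computed, Wnt5a and Wnt8b had r = 0.92 (rho = 0.71), with r = 0.85 for deviations from group means and 0.79 without the 2 arrays farthest from the median of Wnt5a. Wnt3a and Wnt8b had r = 0.81 (rho = 0.69), but 0.40 without the 2 arrays farthest from the median of Wnt3a, so that relation rests on those arrays. Wnt3a and Wnt5a had r = 0.70 (rho = 0.36), and 0.14 without the same 2 arrays.

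As a mean, hem genes outside the Wnt family varied along with Wnt8b. The list holds 14 genes, of which 9 were tested, among them the BMP ligand Bmp7, the BMP targets Id3 and Msx1 and the R-spondin genes Rspo1, Rspo2 and Rspo3, whose products enhance Wnt signalling. Its mean level was 6.88, 5.92 and 5.46 in caudal KO, against 6.61, 7.05 and 6.05 in caudal WT, and 6.40, 6.62 and 6.24 in KO rostral cortex, against 6.52, 6.37 and 6.09 in rostral WT. Over the 12 arrays it had r = 0.77 with Wnt8b (rho = 0.69, deviations from group means 0.90, 0.65 without 2 arrays). Rspo1 read 6.06, 3.95 and 2.64 in caudal KO, against 5.82, 6.37 and 4.29 in caudal WT, where values below 5.21 are dim. The genes of widest range in this mean were Rspo1 (2.64 to 6.42), Rspo2 (3.41 to 7.56) and Msx1 (2.13 to 6.51). Each was dim on some arrays. Among the 108 pairs of a member and a marker list computed, the other marker lists had r with Wnt8b from -0.03 to 0.75, the next after choroid plexus being dorsal telencephalon identity (0.69). Without the 2 arrays farthest from the median of each list, meninges (0.74) and dorsal telencephalon identity (0.70) ran with Wnt8b at least as closely as the hem list. The arrays left out can differ between lists. Over all 12 arrays the meninges list had r = 0.06 with Wnt8b, and -0.11 for deviations from group means. Of the 9 genes 7 were lower and 2 higher in caudal KO, with a median of -0.34 against 0.00 over all tested genes, and none passed. The 2 higher were Rspo3 and Id1, both bright on all 12 arrays. Rspo3 read 8.55, 8.00 and 8.23 in caudal KO, against 7.89, 8.39 and 8.14 in caudal WT. Id1 read 7.64, 7.40 and 7.31, against 7.23, 7.53 and 7.47. In rostral KO, 5 of the 9 hem genes were lower and 4 higher than in rostral WT, and none passed. Their rostral median was -0.01, against -0.02 over all tested genes. Choroid plexus genes, of the tissue next to the hem, had a mean level over 4 tested of 16 genes of 4.49 to 5.76 in caudal KO, against 4.86 to 8.28 in caudal WT (r = 0.75 with Wnt8b, 0.54 without 2 arrays). Rostral levels were 6.66 to 7.49 in KO and 6.67 to 7.25 in WT. Otx2 had the widest range of the 4. It read -0.67 to 1.61 on the caudal arrays other than WT 6, 7.00 on that array, and 4.76 to 7.94 rostrally. Ttr, Kl, Aqp1 and Kcnj13 were too dim to be tested, so choroid plexus is poorly covered by this mean. In pieces of whole tissue, fewer hem cells and less RNA per hem cell cannot be told apart, and the part of the dissection in these values was not tested.

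**Figure D2:**
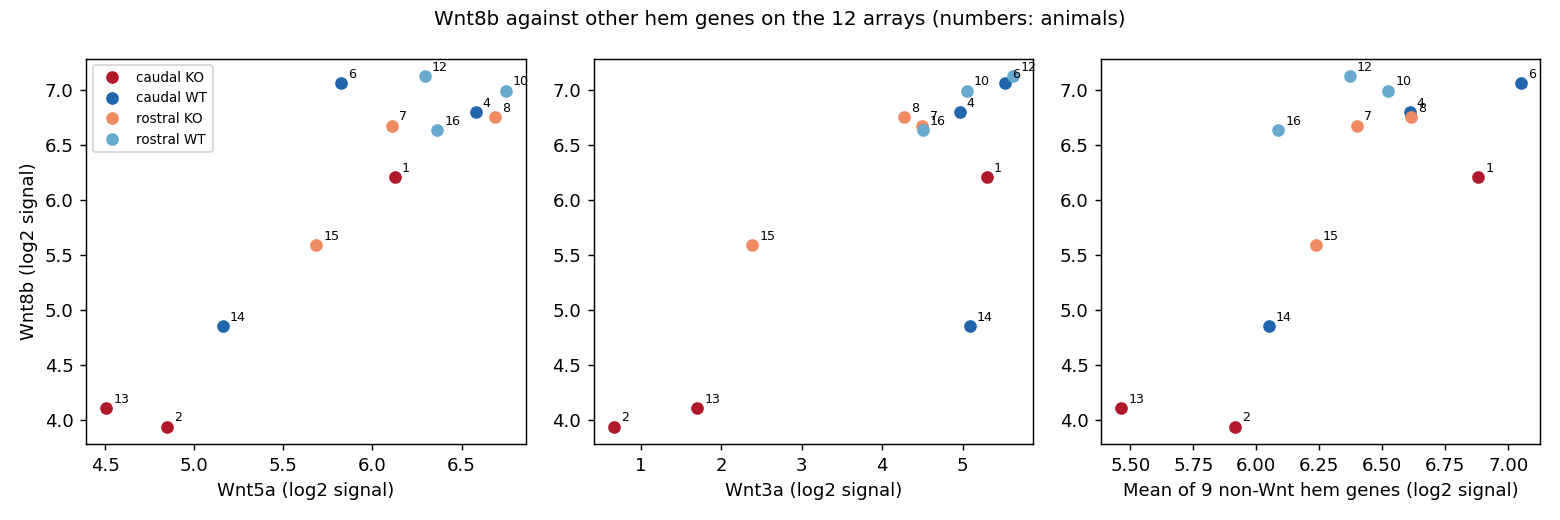
Log2 signal of Wnt8b (vertical axis) against Wnt5a, Wnt3a and the mean of 9 hem genes outside the Wnt family (horizontal axes, log2 signal) on the 12 arrays, 1 point per array with its animal number and coloured by group. Caudal KO 2 and 13 lie lowest on Wnt8b in each panel, with caudal WT 14 and rostral KO 15 next.

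Neither ligand of the whole cortex passed between KO and WT. Wnt7a, made by progenitors of the ventricular zone, read 7.70, 7.85 and 7.77 in caudal KO, against 7.59, 7.78 and 7.34 in caudal WT, and 8.07, 7.87 and 7.54 in KO rostral cortex, against 7.86, 7.80 and 7.90 in rostral WT. KO and WT arrays overlapped in both regions, and the average difference over regions was 0.09 with a 95% interval of -0.14 to 0.31. A second tested Wnt7a probe set gave -0.01 ± 0.35 caudally and -0.12 ± 0.35 rostrally. Wnt7b, its close relative, which is also made by deep layer neurons, read 9.49, 9.39 and 9.55 in caudal KO, against 9.12, 9.58 and 9.14 in caudal WT. Rostrally it read 9.08, 8.91 and 8.48 in KO, against 8.88, 8.99 and 9.18 in WT. Its KO minus WT difference averaged 0.00 (95% interval -0.24 to 0.24), made up of 0.20 ± 0.16 caudally and -0.19 ± 0.16 rostrally. A second tested Wnt7b probe set was lower in KO in both regions, at -0.15 ± 0.29 caudally and -0.33 ± 0.29 rostrally, with overlapping arrays. Rostral KO 15 was the lowest array for Wnt7b, and without it the rostral difference was -0.02. This is the array with the high meninges and ganglionic eminence levels, whose part in the Wnt7b values was not tested.

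Among the antagonists, Sfrp2 was the member nearest to a genotype difference. Secreted frizzled-related proteins carry a Frizzled-like domain that binds Wnt ligands outside the cell. Sfrp2 read 8.73, 8.67 and 9.05 in caudal KO, against 8.98, 9.34 and 9.16 in caudal WT, and 8.62, 8.53 and 8.50 in KO rostral cortex, against 9.01, 8.92 and 8.65 in rostral WT. Rostral KO arrays all lay below rostral WT arrays, while caudally KO 13 overlapped with WT 4. The difference was -0.34 ± 0.13 in caudal, -0.31 ± 0.13 in rostral and -0.33 ± 0.09 in cortex averaged over both regions, a 1.26-fold lower signal, and did not pass (limma adjusted p = 0.40, range 0.21 to 0.84 over 20 alternatives). Sfrp1 read 9.88, 10.21 and 10.19 in caudal KO, against 10.04, 9.81 and 9.69 in caudal WT, and 10.46, 10.70 and 10.40 in KO rostral cortex, against 10.47, 10.69 and 10.50 in rostral WT. KO and WT overlapped, with differences of 0.24 ± 0.12 caudally and -0.04 ± 0.12 rostrally. Other tested Sfrp1 probe sets disagreed in sign, from -0.17 to 0.40 caudally and from -0.44 to 0.28 rostrally, and none passed.

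Neither target passed between KO and WT. Axin2, a scaffold of the beta-catenin destruction complex and a feedback target of canonical Wnt signalling in many tissues, read 7.85, 7.71 and 7.20 in caudal KO, against 7.90, 7.78 and 7.46 in caudal WT. Rostral values were 7.87, 7.72 and 7.75 in KO, against 7.52, 7.79 and 7.84 in WT. The averaged difference was -0.03 (95% interval -0.29 to 0.23), and the arrays of animals 13 and 14 were the lowest of their caudal groups. Lef1, the DNA-binding partner of beta-catenin that mice need to form a dentate gyrus, read 7.62, 7.56 and 6.98 in caudal KO, against 8.13, 7.85 and 7.05 in caudal WT. In rostral cortex it read 7.14, 7.15 and 6.79 in KO, against 7.52, 7.51 and 7.48 in WT, with no overlap there. Its difference was -0.29 ± 0.24 in caudal and -0.48 ± 0.24 in rostral cortex and -0.38 ± 0.17 on average (limma adjusted p = 0.65). A second tested Lef1 probe set, dim on most arrays, overlapped in both regions, at -0.69 ± 0.76 caudally and -0.60 ± 0.76 rostrally. It passed the filter through WT arrays alone, 2 caudal and 1 rostral. The filter thus favours a lower KO level there, and these values are no second reading of the difference. As a description over the 12 arrays, Lef1 had r = 0.49 with Axin2, 0.40 with Wnt5a and 0.43 with Wnt8b. For deviations from group means r was 0.79, 0.80 and 0.77, and without the 2 arrays farthest from the median of the other gene it was 0.21, 0.43 and 0.60.

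**Figure D3:**
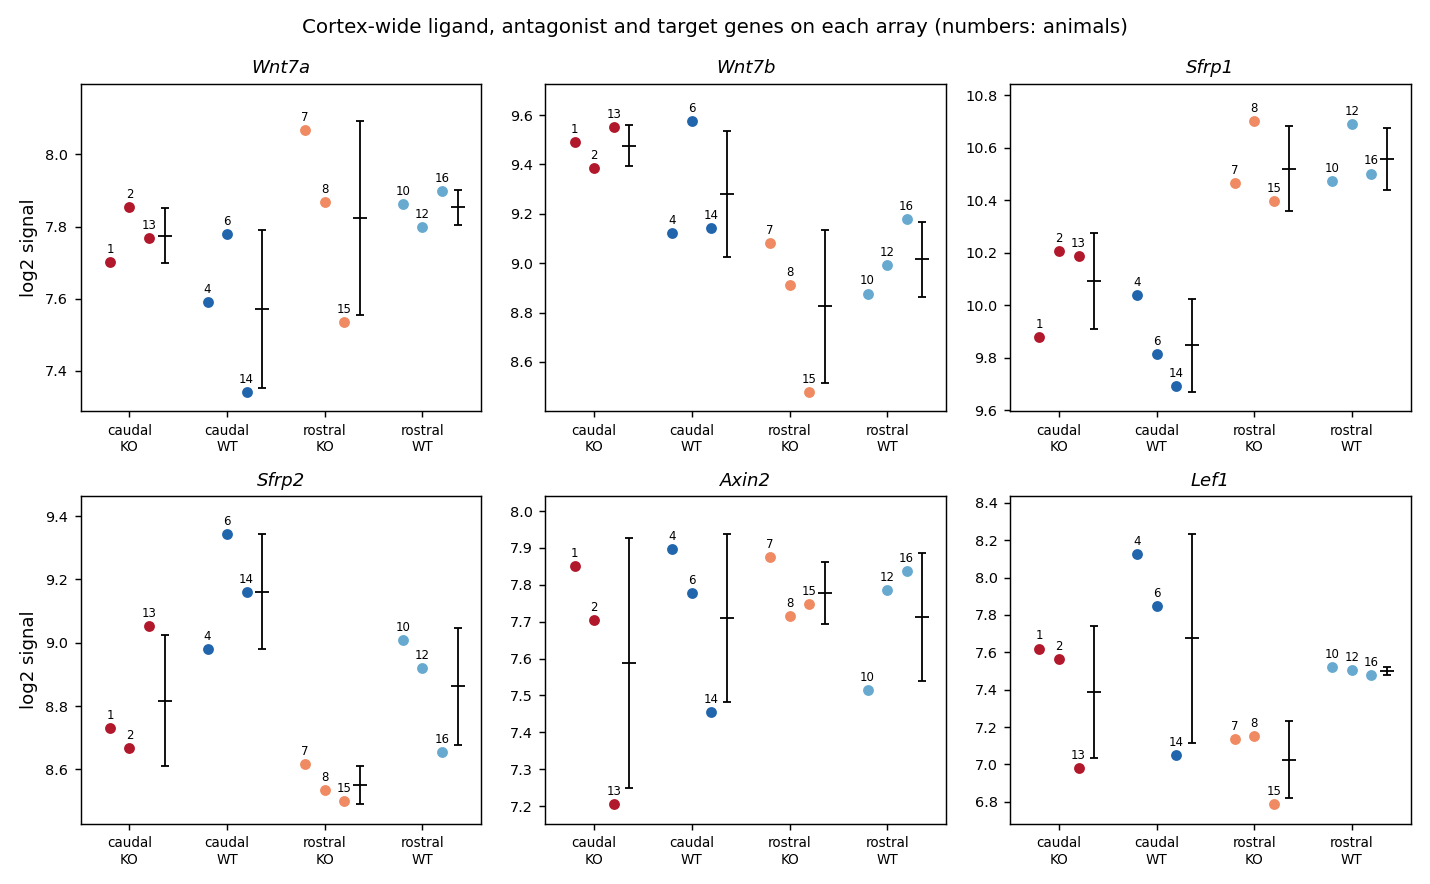
Log2 signal of the whole-cortex ligands, the antagonists and the targets on each array, 1 point per array with its animal number, groups ordered as caudal KO, caudal WT, rostral KO and rostral WT. Bars are mean ± SD (n = 3), and each panel has its own vertical range. Sfrp1 splits by region in both genotypes, Sfrp2 is lower in KO arrays of rostral cortex without overlap, and Lef1 likewise.

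Over all members, no gene passed in any of the 4 comparisons that involve the genotype. In caudal cortex limma called 0 of 9 tested members (0% of all 11785 genes), with 3 at an unadjusted p under 0.05 (Wnt3a, Sfrp2 and Wnt8b, against 4.06% of all genes), and 0 without overlap between KO and WT (7.52%). In rostral cortex it called 0 (0% of all genes), with 1 at an unadjusted p under 0.05 (Sfrp2, 6.69%). There 3 members did not overlap, Wnt3a, Sfrp2 and Lef1, all lower in KO, against 13% of all genes in either direction and 7.5% as lower. Averaged over regions it called 0 members (0.0339% of all genes), with 4 at an unadjusted p under 0.05 (Sfrp2, Wnt3a, Wnt8b and Lef1, 7.53%) and 0 without overlap in both regions (1.18%). The median over the 9 members was -0.29 in caudal, -0.31 in rostral and -0.33 in averaged cortex, beside 0.00, -0.02 and -0.01 over all tested genes. These members are not independent of each other, and their choice was made with earlier results known. The difference of the KO effects between regions was called for 0 members (0% of all genes), and 0 had an unadjusted p under 0.05 (3.04%). The largest such difference against its error was that of Wnt7b (0.39 ± 0.22, limma adjusted p = 1.00), which was 0.18 ± 0.41 on its second probe set.

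**Figure D4:**
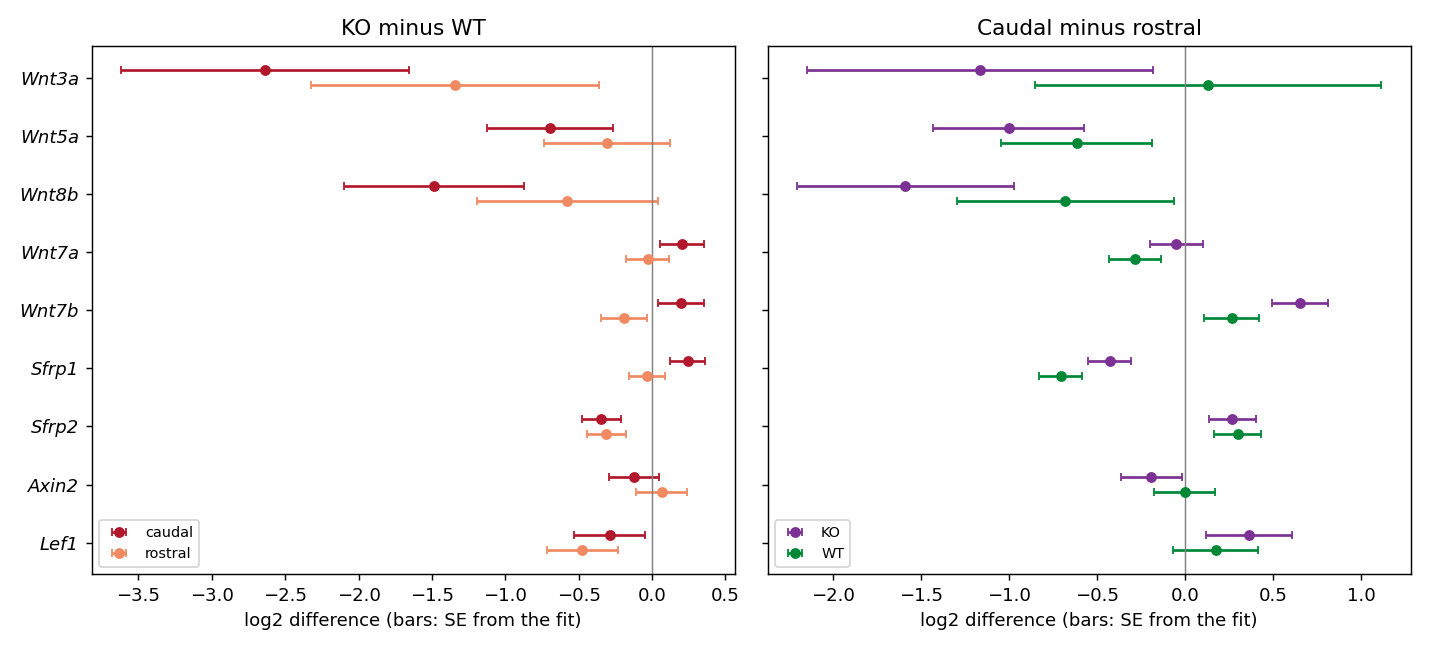
Log2 differences of the 9 tested members with their SE from the limma fit, KO minus WT in caudal and rostral cortex (left) and caudal minus rostral in KO and WT cortex (right). Values left of 0 are lower in KO or in caudal cortex. Sfrp1 is lower and Wnt7b higher in caudal than in rostral cortex, and the hem ligands have the widest bars.

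Between regions, Sfrp1 and Wnt7b passed. Averaged over both genotypes, limma called 2 of 9 members (4.46% of all genes): Sfrp1 was lower and Wnt7b higher in caudal than in rostral cortex. Sfrp1 fell by 0.57 on the log2 scale (SE 0.09), a 1.48-fold lower signal caudally (limma adjusted p = 0.0021, range 0.0011 to 0.016 over 20 alternatives, all of them past the threshold). Every caudal array lay below every rostral array within each genotype, which held for 1 member and, in either direction, for 4.79% of all genes. Taken alone, WT cortex had 2 members without overlap between regions (Sfrp1 and Wnt7a, both lower caudally, 13.9% of all genes) and KO cortex 3 (Sfrp1 lower, Wnt7b and Sfrp2 higher caudally, 20.9%). A second tested Wnt7a probe set overlapped between regions in both genotypes, at 0.07 ± 0.35 in WT and 0.18 ± 0.35 in KO cortex. In WT cortex Sfrp1 was the 1 member called (0.942% of all genes), at -0.71 ± 0.12 (limma adjusted p = 0.015). In KO cortex its difference was -0.43 ± 0.12 (adjusted p = 0.12), and 0 members were called (0.95% of all genes). The WT call was lost without caudal WT 14 (adjusted p = 0.056), rostral WT 10 (0.054) or rostral WT 12 (0.076). Whether WT and KO differed in this respect was tested as the difference of KO effects, 0.28 ± 0.17, which did not pass (adjusted p = 1.00).

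All 5 Sfrp1 probe sets were lower in caudal cortex of both genotypes, by 0.29 to 0.71 on the log2 scale. A second probe set read 9.36, 9.38 and 9.89 in caudal KO, against 10.16, 10.26 and 10.23 in rostral KO, and 9.64, 9.50 and 9.25 in caudal WT, against 10.37, 10.01 and 9.73 in rostral WT. Caudal and rostral arrays again did not overlap in either genotype, with an average of -0.62 ± 0.12 (limma adjusted p = 0.017 over all probe sets). The other 3 probe sets averaged -0.39, -0.46 and -0.53 and did not pass (adjusted p = 0.25, 0.43 and 0.15), and their arrays overlapped in at least 1 genotype. In animals 1 to 12 the Sfrp1 difference was -0.60 and in animals 13 to 16 it was -0.51.

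Markers of the ganglionic eminences, the ventral telencephalon that borders the cortex laterally, moved with region as well. Their list holds 14 genes, of which 10 were tested, and 9 of these were lower in caudal cortex, with a median of -1.01 against -0.02 over all genes. The 4 called were Dlx1 (-1.16), Dlx2 (-1.06), Dlx5 (-0.75) and Isl1, transcription factors of ventral progenitors and neurons. Isl1 was dim on all 6 caudal arrays (1.86 to 3.92), against 5.15 to 8.41 on the rostral arrays, through which alone it passed the filter. Ebf1 passed through the rostral KO arrays alone (5.63 to 5.84), with 3.87 to 5.02 on the caudal arrays. For both genes a lower caudal level follows from the filter, and the count, median, means and correlations of the list include them. Dlx1, Dlx2 and Dlx5 were bright on all 12 arrays. The mean level of the list was 5.41 to 6.29 in caudal KO, against 6.69 to 8.03 in rostral KO, and 5.45 to 6.20 in caudal WT, against 6.76 to 7.40 in rostral WT. With Sfrp1 it had r = 0.70 (rho = 0.74) over the 12 arrays, and -0.20 for deviations from group means. With Wnt7b it had r = -0.75 (rho = -0.66), and -0.36 for deviations. Without the 2 arrays farthest from its median, r was 0.76 with Sfrp1 and -0.51 with Wnt7b. Such relations were not particular to this list. The thalamus and diencephalon list had r = 0.58 with Sfrp1 (0.86 without 2 arrays, -0.39 for deviations). With Wnt7b it had r = -0.79 (-0.61 without 2 arrays, -0.37 for deviations). Dorsal telencephalon identity had r = 0.57 with Sfrp1 (0.68 without 2 arrays, 0.59 for deviations). The part of ventral tissue in the regional differences was not tested.

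Wnt7b differed by 0.46 ± 0.11 between caudal and rostral cortex, a 1.37-fold higher signal caudally (limma adjusted p = 0.034). It passed under 8 of 20 alternatives, with adjusted p from 0.021 to 0.13. In KO cortex each caudal array (9.39 to 9.55) lay above each rostral array (8.48 to 9.08), at 0.65 ± 0.16 (adjusted p = 0.073), or 0.48 without rostral KO 15 (0.22). In WT cortex they overlapped (9.12 to 9.58 caudally, 8.88 to 9.18 rostrally), at 0.26 ± 0.16 (adjusted p = 0.66). Leaving out 1 array ended the averaged call for 8 arrays: caudal KO 1, 2 and 13, caudal WT 6, rostral KO 8 and 15, and rostral WT 10 and 12, with adjusted p from 0.056 to 0.092. Both Wnt7b probe sets were higher caudally (0.46 ± 0.11 and 0.47 ± 0.20), and neither passed when probe sets rather than genes were tested (adjusted p = 0.060 and 0.32).

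**Figure D5:**
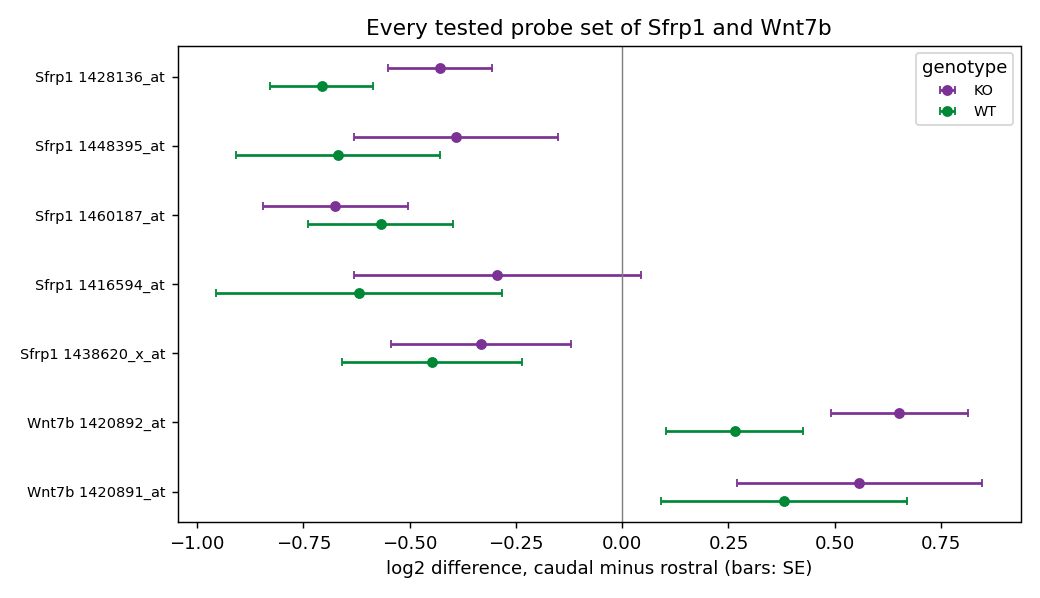
Log2 difference, caudal minus rostral, of every tested probe set of Sfrp1 (5) and Wnt7b (2) in KO and WT cortex, with SE from the fit over all probe sets. All Sfrp1 probe sets lie left of 0 and both Wnt7b probe sets lie right of 0 in both genotypes.

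No hem ligand passed between caudal and rostral cortex. Averaged over genotypes all 3 tested had lower caudal means, whereas in WT cortex alone Wnt3a was 0.13 higher caudally. Wnt8b differed by -1.14 ± 0.44 (limma adjusted p = 0.19) and Wnt5a by -0.81 ± 0.30 (0.18), and Wnt3a by -0.52 ± 0.69 (0.77). With dim values raised to the median these differences were -0.68, -0.62 and 0.00. In KO cortex 4 members had an unadjusted p under 0.05 (Wnt7b, Sfrp1, Wnt8b and Wnt5a, against 13.2% of all genes), in WT cortex 2 (Sfrp1 and Sfrp2, 10.4%), and averaged 5 (these 4 and Sfrp2, 17.3%). Without caudal KO 1, Wnt8b (-1.50, adjusted p = 0.043) and Wnt5a (-1.05, 0.050, just under the threshold) passed in the averaged comparison, and Wnt7b did not. In animals 1 to 12 the Wnt8b difference was -0.89, and in animals 13 to 16 it was -1.63. Sfrp2 had the sign opposite to that of Sfrp1, at 0.28 ± 0.09 (adjusted p = 0.12). Axin2 (-0.10, 95% interval -0.36 to 0.16), Wnt7a (-0.17, -0.39 to 0.06) and Lef1 (0.27, -0.10 to 0.64) did not pass either. Lef1 differed by 0.46 in animals 1 to 12, and in a fit of these alone passed (adjusted p = 0.042), but by -0.12 in animals 13 to 16.

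In the wider pathway 6 genes passed between regions and 0 between genotypes. The list of ligands, receptors, secretion factors, R-spondins, antagonists, transducers, nuclear factors and targets holds 97 further genes, of which 63 were tested. limma called 0 of these in each genotype comparison, with 4 at an unadjusted p under 0.05 in caudal, 5 in rostral and 6 in averaged cortex (6.35%, 7.94% and 9.52% of the 63, beside 4.06%, 6.69% and 7.53% of all genes). Over all genes 0%, 0% and 0.0339% were called. Nearest were the cyclin gene Ccnd1, which drives entry into S phase, at 0.33 ± 0.07 averaged over regions (adjusted p = 0.21), and Tcf7l1, a TCF factor that mostly represses its targets, at -0.41 ± 0.12 (0.42). In the averaged comparison of caudal with rostral cortex 6 of the 63 were called (9.52%, beside the 4.46% of all genes), 1 higher and 5 lower. Neither share was tested against the other.

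Fzd7, which encodes a Wnt receptor and is also a known Wnt target, was the 1 higher gene. It read 7.25, 7.00 and 7.03 in caudal KO, against 6.23, 6.31 and 6.07 in rostral KO, and 7.55, 7.57 and 7.02 in caudal WT, against 6.26, 6.17 and 5.83 in rostral WT. Caudal and rostral arrays did not overlap in either genotype, and the difference was 1.09 ± 0.13 (limma adjusted p = 0.00048). Lower in caudal cortex were Myc, a growth-promoting transcription factor (-0.65 ± 0.08), Ccnd1 (-0.37 ± 0.07), Tcf7l1 (-0.50 ± 0.12), Reck, part of the receptor complex that reads Wnt7a and Wnt7b in brain vessels (-0.53 ± 0.13), and the Wnt co-receptor gene Ptk7 (-0.51 ± 0.14). Fzd7 and Myc were called in WT and in KO cortex as well, and Reck in KO cortex. No other ligand, R-spondin, antagonist or cytoplasmic transducer of the list was called.

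Likeness over the 12 arrays was taken as Pearson's r, and the 3 most alike of all tested genes are named for some members as a description. For Sfrp1 these were Bmpr1b (0.98), which encodes a BMP receptor, Tmem41a (0.95) and Mrps28 (0.94). Wnt7b was most like Tle2 (0.92), a Groucho-type co-repressor gene on the pathway list, Khdrbs2 (0.91) and Nxph3 (0.91). Genes most like Wnt8b were Fzr1 (0.94), Ranbp3 (0.94) and Tpbg (0.93), which encodes a membrane protein known to inhibit Wnt signalling in zebrafish. For Lef1 they were Slc39a11 (0.92), Tmem97 (0.91) and Sh3glb2 (0.91). No test of likeness was made.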

How the data were processed

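Log2 values of 45101 probe sets on 12 one-colour arrays were used as deposited. Biotin-labelled RNA was made from 400 ng per array, as the labels state. Quartiles of the deposited log2 values were alike across arrays, which points to a normalisation by the authors. The methods of background correction, normalisation and summarisation are not given in the sources used here. Probe sets were named from the platform annotation: 34958 named 1 gene, 932 several (not used) and 9211 none. A probe set was tested if above the table median (5.21) on at least 3 of 12 arrays, and the brightest tested probe set stood for its gene, which left 11785 genes.

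limma 3.58.1 (R 4.3.3) fitted 1 mean per group to all 12 arrays with an intensity trend (residual degrees of freedom 8, prior 5.37), in 7 comparisons, with two-sided p adjusted by Benjamini-Hochberg over the 11785 genes and a threshold of 0.05. The fit was tested on simulated data. The members and the pathway and marker lists were chosen with earlier results of these data known. All 10 members are named, and up to 4 called genes of a list, or the 3 of smallest p, and the 3 genes most like each member could be named. Alternatives were quantile normalisation, dim values raised to the median, no filter, every probe set as a feature, no intensity trend, animals 13 to 16 as a block, only the 2 groups compared, without animals 6 and 12, each array left out, and, chosen after seeing the data, animals 1 to 12 only.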

Additional observations from a re-analysis of the deposited data

How the results depend on the processing

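In the 4 comparisons that involve the genotype, 0 members passed under every alternative run. Sfrp1 stayed lower in caudal cortex, averaged over genotypes, and past the threshold in all 20 alternatives. The averaged comparison of caudal with rostral cortex called 2 members; with every tested probe set as a feature, with no intensity trend, and without animals 6 and 12 it called 1 (Sfrp1), and without single arrays 1 to 3. In WT cortex the count of 1 became 0 with no intensity trend, without animals 6 and 12, and in animals 1 to 12 only, and ran from 0 to 1 without single arrays. In KO cortex the count of 0 became 1 (Wnt7b, adjusted p = 0.039) with animals 13 to 16 as a block. That block also brought Wnt8b past the threshold in the averaged comparison (adjusted p = 0.048). The causes were not tested. Over all genes, the count called ran from 334 to 926 in the averaged comparison of regions (526 as reported), 20 to 342 in KO (112) and 22 to 257 in WT cortex (111), and from 1 to 20 for genotype averaged over regions (4), 0 to 4 in caudal and in rostral cortex (0 each) and 0 to 1 for the difference of the KO effects (0). No paired analysis was possible because every array carries a different animal number. Dim signal limits Wnt3a, Wnt2b and part of Wnt5a and Wnt8b: with dim values raised to the median, the caudal KO minus WT difference of Wnt8b was -0.81 in place of -1.49 and that of Wnt5a -0.35 in place of -0.69.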

Other observations

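Rspo2, a hem gene whose product potentiates Wnt signalling, read 7.14, 4.54 and 3.80 in caudal KO, against 5.85, 7.56 and 4.46 in caudal WT, and 5.78, 5.70 and 3.41 in KO rostral cortex, against 5.81, 4.87 and 5.45 in rostral WT. Its lowest array was rostral KO 15, followed by caudal KO 13. Wls, the carrier that Wnt proteins need to leave the cell, read 6.40, 6.11 and 5.46 in caudal KO, against 6.39, 6.99 and 6.00 in caudal WT, and 6.22, 6.06 and 6.26 in KO rostral cortex, against 5.86, 6.15 and 5.82 in rostral WT. KO and WT overlapped in both regions for Wls, and its difference of KO effects was -0.71 ± 0.39 (limma adjusted p = 1.00).

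Draxin, a secreted Wnt antagonist and axon guidance protein, was the pathway gene just outside the threshold between regions. It read 10.05, 10.21 and 9.88 in caudal KO, against 9.71, 9.58 and 9.71 in rostral KO, and 10.17, 9.88 and 10.20 in caudal WT, against 9.71, 9.64 and 10.07 in rostral WT. Caudal and rostral arrays were apart in KO and overlapped in WT cortex, and the averaged difference of 0.33 ± 0.09 did not pass (limma adjusted p = 0.057).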
